A study of Mus musculus with 2 samples.

Results

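Interferon-stimulated genes make up the antiviral programme that cells switch on when they sense type I or type II interferon. A set of 38 of them, chosen by gene symbol, was described here out of 55536 annotated mouse genes: Ifnb1, which encodes interferon beta, and 37 genes of the response, grouped as the IFIT, OAS, MX, GBP, IRG and RIG-I-like families, the ISG15 system and other antiviral effectors. All 38 symbols matched exactly 1 gene identifier.

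The RNA came from the nucleoplasm of macrophages grown from C57BL/6J mouse bone marrow. The cells had been exposed to lipid A, the part of bacterial lipopolysaccharide that activates the receptor TLR4, at 100 ng/ml for 20 min. Ribosomal RNA was depleted and total RNA was sequenced in 2 libraries, replicate 1 from 1 µg and replicate 2 from 500 ng of RNA. Both carry the same donor identifier, the labels do not say whether they came from separate cultures, and age and sex were not collected. RNA input and replicate number therefore cannot be told apart, and the spread between the libraries may be technical. Unstimulated cells and other times were not analysed here, so the levels below are those of stimulated nuclei and carry no statement about induction.

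In this pathway, interferon beta leaves the cell and binds the receptor pair IFNAR1 and IFNAR2, whose kinases JAK1 and TYK2 phosphorylate transcription factors that include STAT2. A complex that holds STAT2 and IRF9 binds the interferon-stimulated response element, a repeat of GAAA separated by short spacers, in front of the responding genes. In macrophages TLR4 can reach the Ifnb1 gene through the adaptors TRAM and TRIF and the factor IRF3, and NF-kB also binds the Ifnb1 promoter. Because nuclear RNA holds both finished transcripts awaiting export and precursors still being made, a level in this fraction is not a level of cytoplasmic mRNA.

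Gene totals were 18194818 and 18667509 estimated counts in replicates 1 and 2, and 15557 genes had a mean scaled count of 10 or more. Mitochondrially encoded genes took 3.19% of counts in replicate 1 (exact 95% interval 3.18 to 3.20) and 10.53% in replicate 2 (10.52 to 10.54). All 10 macrophage markers reached 1 TPM in each library, with medians of 203 and 172 TPM and summed levels of 3935 and 3629 TPM in replicates 1 and 2. TPM is a transcript level corrected for transcript length and scaled to a fixed total per table, and values are those of the first of 2 deposited quantifications unless the second is named. The highest markers were Lyz2, Csf1r and Cd14. Markers of neutrophils, B cells, T and NK cells and stromal cells held no gene at 1 TPM or more in both, and their summed levels lay between 0.03 and 5.12 TPM. In the second quantification 1 of these genes did, Cd3d at 2.90 and 9.43 TPM, against 0.04 and 0.03 TPM in the first, and Cd3g stood at 0.36 and 1.17 TPM. Cd3e, Cd3g, Nkg7, Ncr1, Klrb1c, Ly6g, Pax5, Klk1, Dcn and both beta-globin genes listed were at 0 in both libraries in the first quantification. Of the 6 markers of plasmacytoid dendritic cells, specialist producers of interferon, Tcf4 had 95.9 and 73.1 TPM and Ccr9 had 2.43 and 1.83 TPM in replicates 1 and 2. The other 4 lay below 1 TPM, although Siglech, 1 of them, had 1.03 and 1.32 TPM in the second quantification. Conventional dendritic and erythroid lists each had 1 gene at 1 TPM or more in both, Zbtb46 at 1.19 and 1.36 TPM and Alas2 at 3.54 and 3.63 TPM. In these bulk libraries, fewer cells of a type and less RNA per cell cannot be told apart.

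Ifnb1, the cytokine at the head of the response, was represented by 3 counts in replicate 1 and 1 count in replicate 2, or 0.29 and 0.08 TPM. Both counts lie at or under the limit of 3 counts that a count of 0 allows, which corresponds to 0.165 CPM (counts scaled to library size) in replicate 1 and 0.161 CPM in replicate 2, so no ratio is given. The second quantification listed it at 0.121 and 0.0786 TPM. Among 19 other interferon genes, 18 had 0 counts in both libraries. The exception was Ifnk, which encodes interferon kappa, with 12 and 9 counts and 1.06 and 0.64 TPM. The second quantification listed Ifna16, which is among the 18, at 1.76 and 0.77 TPM in replicates 1 and 2. In the first quantification no interferon gene other than Ifnk exceeded the limit of 3 counts.

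Of the 38 genes, 37 lay at 1 TPM or more in both, with Ifnb1 as the exception. Over 22015 nuclear-encoded protein-coding genes the same share was 44.9%. The median level of the 38 genes was 35.2 TPM in replicate 1 and 21.3 TPM in replicate 2, against 0.59 and 0.48 TPM over the protein-coding genes. That is 28.3 ± 9.79 TPM (mean of the 2 medians, SD, n = 2). At 10 TPM or more in both libraries there were 28 genes, and at 100 TPM or more there were 6: Rnf213, Samhd1, Oasl2, Ifi204, Parp14 and Oas2. When the protein-coding genes were ranked by level, 17 of the 37 genes that have a rank stood in the top 10% in both libraries. Mx2 has no rank because its annotated class is polymorphic pseudogene.

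**Figure D1:**
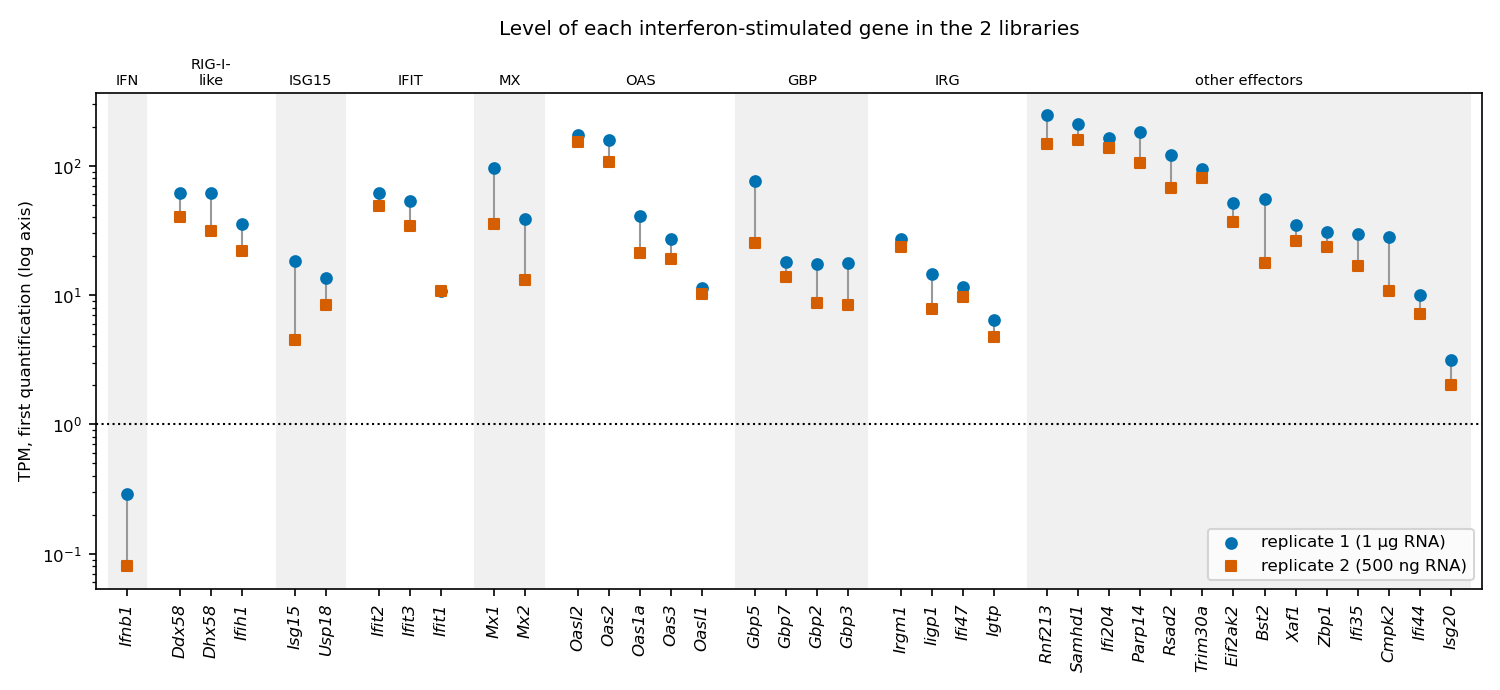
TPM (log axis) of each of the 38 genes, grouped by family along the x axis, with a circle for replicate 1, a square for replicate 2 and a dotted line at 1 TPM. The genes other than Ifnb1 lie between 2.00 and 245 TPM, Ifnb1 lies below the line, and the circle lies above the square for every gene, by little for Ifit1.

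The regulatory sequence of these genes was read from RefSeq promoter windows of 300 bases on build GRCm38.p6, which run from 250 bases before to 50 bases after the start. A window was found for 29 of the 38 genes. Those not matched were Mx1, Mx2, Oas2, Usp18, Dhx58, Iigp1, Zbp1, Parp14 and Ifi204. The core of the interferon-stimulated response element was searched as GAAA, any 2 bases and GAAA again, on both strands, and overlapping matches were counted separately. It stood in 17 of the 29 windows, or 58.6%, against 3.99% of 27025 windows of all genes. The longer form, with CT after the last A, stood in 11 of them, against 0.303% of all windows. A core of the sites bound by NF-kB, GGGA, any 2 bases and TTCC, stood in 5 windows (Ifnb1, Ifit2, Gbp2, Gbp5 and Isg20), against 1.63% of all windows. These are matches of letters and not measurements of binding.

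Stretches of 60 bases that hold the matches are printed 5′ to 3′ along each gene's own strand, for members of different families and for the genes that differed most between the libraries. Capitals mark the response element core, which reads TTTC, any 2 bases and TTTC on the opposite strand, and in Ifnb1 they mark the NF-kB core. All lie upstream of the RefSeq start.
Isg15, chr4:156200859-156200918, minus strand: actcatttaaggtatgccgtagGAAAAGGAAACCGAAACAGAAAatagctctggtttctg
Ifit1, chr19:34640769-34640828, plus strand: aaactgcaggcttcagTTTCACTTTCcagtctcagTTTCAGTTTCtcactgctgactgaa
Ifit3, chr19:34583361-34583420, plus strand: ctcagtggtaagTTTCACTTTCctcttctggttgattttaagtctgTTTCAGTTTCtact
Rsad2, chr12:26456538-26456597, minus strand: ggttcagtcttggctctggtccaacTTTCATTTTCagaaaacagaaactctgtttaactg
Oas1a, chr5:120907526-120907585, minus strand: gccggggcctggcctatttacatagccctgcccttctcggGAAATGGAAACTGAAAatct
Gbp2, chr3:142620578-142620637, plus strand: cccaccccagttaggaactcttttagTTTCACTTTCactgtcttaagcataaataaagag
Gbp5, chr3:142496744-142496803, plus strand: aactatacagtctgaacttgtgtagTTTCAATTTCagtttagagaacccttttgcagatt
Irgm1, chr11:48871421-48871480, minus strand: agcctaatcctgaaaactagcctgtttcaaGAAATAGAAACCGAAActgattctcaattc
Bst2, chr8:71537563-71537622, minus strand: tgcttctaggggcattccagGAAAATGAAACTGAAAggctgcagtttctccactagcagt
Ifnb1, chr4:88522875-88522934, minus strand: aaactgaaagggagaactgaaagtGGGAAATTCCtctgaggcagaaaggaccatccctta

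The Isg15 stretch holds 3 overlapping matches that begin 78, 72 and 66 bases before the start, so that 4 GAAA repeats follow each other at a spacing of 2 bases. Bst2, Oas1a and Irgm1 each hold 2 overlapping matches in that arrangement. In Ifit1 and Ifit3 the 2 matches are apart and on the opposite strand, as are the single matches of Gbp2, Gbp5 and Rsad2. The Ifnb1 window holds no match to the response element core, which says only that those letters are not in that window. Across genes with a window, the 17 with a match had median levels of 35.7 and 20.96 TPM in replicates 1 and 2. The 12 without one had 28.8 and 13.7 TPM. Those 12 include Ifnb1 but also Rnf213, Samhd1 and Oasl2, each at 100 TPM or more in both libraries. A link between the motif and the level was not tested.

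**Figure D2:**
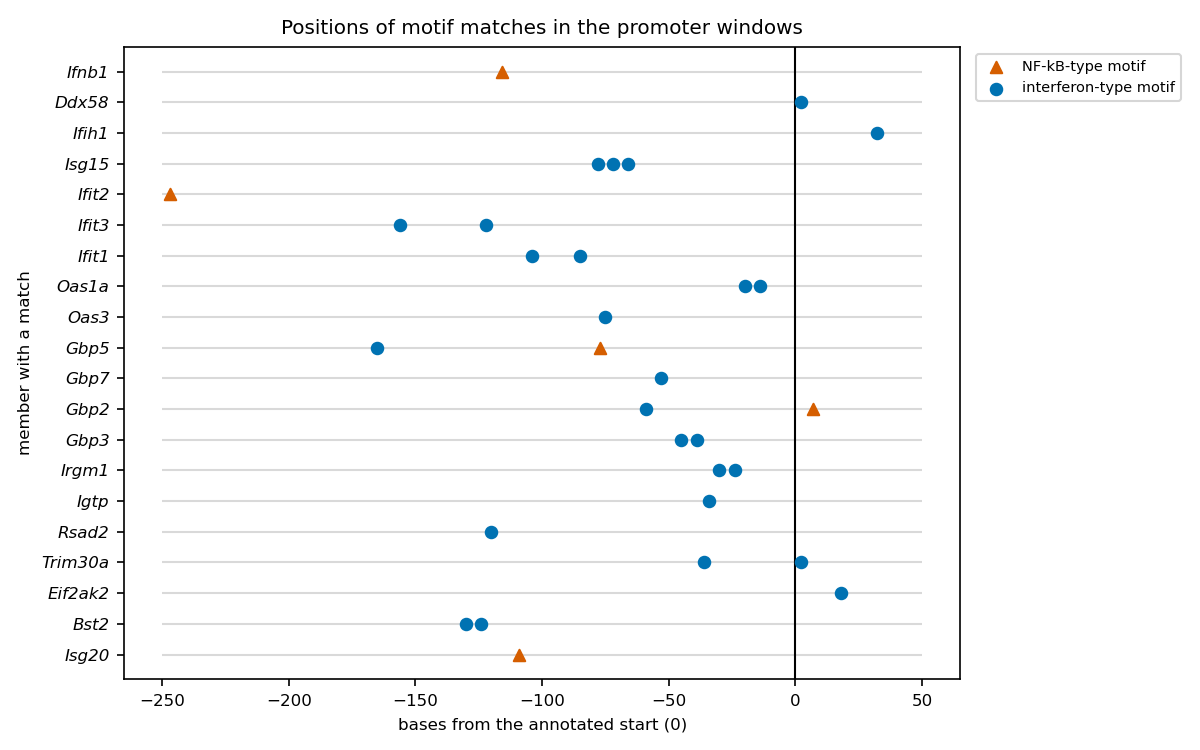
First base of each motif match in the promoter windows of the genes with a match, in bases from the RefSeq start, with 1 row per gene, circles for the response element core and triangles for the NF-kB core. Response element matches begin between 165 bases before and 32 bases after the start, and those of Ddx58, Eif2ak2 and Ifih1 lie only after it.

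The IFIT proteins bind viral RNA and block its translation, and their genes lie side by side on chromosome 19. Ifit2 (chr19:34550694-34576419) had 61.7 TPM in replicate 1 and 48.7 TPM in replicate 2. Ifit3 had 53.3 and 34.0 TPM. Ifit1, whose product recognises RNA that lacks cap methylation, had 10.7 TPM in both libraries. Ifit1 thus lay well below its neighbours in each library. The Ifit1 stretch above holds as many matches as the Ifit3 stretch, and the Ifit2 window holds no match to the response element core. No link between these matches and the levels was tested. Ifit3 shares 61.8% of its 31-base words with other genes, mainly with Ifit3b, which had 4.34 and 2.99 TPM, so the division of reads between that pair is uncertain. The authors' posterior SD of the count for Ifit3 was 5.05 and 4.35 counts, against counts of 1557 and 1219.

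The ISG15 system attaches a ubiquitin-like protein to others and removes it again. Isg15 (chr4:156199424-156200818), which encodes the modifier, had 18.2 TPM in replicate 1 and 4.48 TPM in replicate 2, from 190 and 58 counts. Usp18, which encodes the protease that removes it and also restrains the interferon receptor, had 13.5 and 8.44 TPM. The libraries differed more for Isg15 than for Usp18.

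MX proteins are dynamin-like GTPases that trap viral components, and C57BL/6 mice are known to carry defective alleles of both genes. Mx1 (chr16:97447035-97462907) had 96.5 TPM in replicate 1 and 35.7 TPM in replicate 2. Mx2 had 39.0 and 13.1 TPM. Within each library Mx1 stood above Mx2, and both were higher in replicate 1.

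Those OAS proteins that are active enzymes make 2′-5′-linked oligoadenylates on double-stranded RNA and so switch on RNase L. Oasl2 had 174 TPM in replicate 1 and 151 TPM in replicate 2, and Oas2 had 158 and 107 TPM. Oas1a had 40.7 and 20.96 TPM, and Oas3 had 27.1 and 18.9 TPM. Oasl1, whose product restrains translation of Irf7 in mice, had 11.3 and 10.1 TPM. In each library Oasl2 and Oas2 lay far above the others, and Oasl1 was the lowest. Oas1a shares 68.8% of its 31-base words with other genes, chiefly its near copy Oas1g, which had 45.1 and 24.8 TPM. The authors' posterior SD of the count for Oas1a was 12.3 and 10.3 counts, against counts of 1296 and 819.

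The RIG-I-like receptors sense viral RNA in the cytoplasm and signal through MAVS. Ddx58, which encodes RIG-I, had 61.5 TPM in replicate 1 and 40.4 TPM in replicate 2. Ifih1, which encodes MDA5, had 35.7 and 21.7 TPM. Dhx58, which encodes the regulator LGP2, had 61.8 and 31.2 TPM. In replicate 1 Ddx58 and Dhx58 were close to each other, while in replicate 2 Dhx58 was the lower of that pair.

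GBPs are large GTPases that coat and break open vacuoles and bacteria, and the 4 genes measured lie in a cluster on chromosome 3. Gbp5 (chr3:142493978-142522344), which also promotes inflammasome assembly, had 76.2 TPM in replicate 1 and 25.1 TPM in replicate 2. Gbp2 had 17.5 and 8.60 TPM, Gbp3 had 17.6 and 8.34 TPM, and Gbp7 had 17.9 and 13.8 TPM. Gbp5 led the family in both libraries, and the other 3 were nearly equal in replicate 1. The immunity-related GTPases act on the same vacuoles. Irgm1, a regulator of the others, had 27.1 and 23.3 TPM, Iigp1 had 14.5 and 7.80 TPM, Ifi47 had 11.5 and 9.68 TPM, and Igtp had 6.44 and 4.77 TPM. Irgm1 was the highest of the 4 in both libraries.

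The remaining effectors covered the widest range. Rnf213 (chr11:119393100-119487418), a very large ubiquitin ligase that restricts bacteria and viruses, had 245 TPM in replicate 1 and 147 TPM in replicate 2, and was the highest of the set in replicate 1, though not in the second quantification, where Samhd1 led in both libraries at 94.9 and 141 TPM. Because it is long, Rnf213 alone took 37.3% of the set's counts in replicate 1 and 32.1% in replicate 2. Samhd1, which depletes deoxynucleotides, had 210 and 156 TPM and was the highest in replicate 2. Parp14, an ADP-ribosyltransferase, had 181 and 105 TPM, and Ifi204, a nuclear DNA sensor, had 163 and 136 TPM. Samhd1 lay above Parp14 and Ifi204 in both libraries, while the order of Rnf213 and Samhd1, and that of Parp14 and Ifi204, differed between the libraries. Of Ifi204, 34.6% of the 31-base words occur in other genes, mainly Ifi211.

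Rsad2 encodes viperin, which makes a chain-terminating nucleotide, and had 121 TPM in replicate 1 and 67.6 TPM in replicate 2. Its neighbour on chromosome 12, Cmpk2, which encodes a mitochondrial nucleotide kinase, had 27.99 and 10.7 TPM. Bst2, which encodes tetherin and holds budding virions at the membrane, had 55.01 and 17.6 TPM. All 3 had the higher TPM in replicate 1, although in the second quantification Rsad2 had 68.2 TPM in replicate 1 and 75.4 TPM in replicate 2. Trim30a, a negative regulator of NF-kB signalling in mice, had 93.4 and 80.8 TPM, and Eif2ak2, the double-stranded-RNA-activated kinase PKR, had 50.98 and 36.95 TPM. Xaf1, a pro-apoptotic factor, had 34.7 and 26.1 TPM, Zbp1, a sensor of Z-form nucleic acid that triggers necroptosis, had 30.6 and 23.5 TPM, and Ifi35 had 29.6 and 16.8 TPM. Ifi44 had 9.96 and 7.09 TPM. Isg20, which encodes an exonuclease of RNA, had 3.14 and 2.00 TPM from 43 and 33 counts and was the lowest gene above Ifnb1 in both libraries.

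Relatives of these families that are not in the set had a lower median. Of 28 listed, 16 lay at 1 TPM or more in both, with medians of 3.82 and 2.91 TPM. The highest were Mndal with 230 and 260 TPM, Ifi203 with 128 and 111 TPM, and Gbp8 with 68.6 and 48.4 TPM. Ifi44l, Oas1d and Oas1f had 0 counts in both libraries. The genes named in the set are therefore not the only abundant members of their families in these nuclei, since Mndal and Ifi203, relatives of Ifi204, stood beside Ifi204 in level.

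The genes that carry the interferon signal were also present. Of 24 listed, 23 lay at 1 TPM or more in both, with medians of 50.4 and 25.3 TPM, and the exception was the feedback inhibitor Socs1 at 0.54 and 0.28 TPM. The receptor genes Ifnar1 and Ifnar2 had 66.2 and 51.9 TPM, and 65.6 and 58.4 TPM, in replicates 1 and 2. Stat2 had 116 and 74.1 TPM and Irf9 had 27.8 and 18.2 TPM. Irf1, an early transcription factor of the interferon and TLR responses, had 823 and 181 TPM and was the highest of the list in both libraries. The kinase gene Ikbke had 276 and 127 TPM. RNAs of the receptors, Stat2 and Irf9 were thus measurable in cells in which Ifnb1 RNA was at the limit of detection.

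All 38 genes had a higher TPM in replicate 1 in the first quantification, but only 10 did in the second, where 28 were higher in replicate 2. The median log2 ratio of TPM, replicate 1 over replicate 2, was 0.63 over the set and 0.35 over all genes tested in the first quantification, so part of that shift is shared by all genes on the TPM scale. Counts were therefore scaled by TMM, which brings the median over all genes to -0.00 on the log2 scale. On this scale the median ratio over the 37 genes that passed the count minimum was 0.29. Beyond counting error (exact binomial 95% interval of the log2 ratio clear of 0), 21 of the 37 were higher in replicate 1, against 25.6% of all 15557 genes, and 6 were lower in replicate 1, against 24.5% of all genes. The other 10 lay within counting error. The interval reached a median of 0.12 to either side of the ratio over the set and 0.29 over all genes. Genes with more counts clear 0 at smaller ratios, so the shares of all genes are not matched for depth. Each ratio compares 1 library with 1 library, its interval covers counting error only, and it has no replicate check.

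Over 2-fold higher in replicate 1, with the interval clear of 0, were 5 genes, against 3.67% of all genes. Isg15 had a log2 ratio of 1.64 (interval 1.22 to 2.10), which ran between 1.08 and 2.00 over the other scalings and settings, and 13.1% of its 31-base words occur in other genes. Bst2 had 1.27 (1.05 to 1.49), Gbp5 had 1.26 (1.19 to 1.34) and Mx2 had 1.15 (1.00 to 1.30). Cmpk2 had 1.06 (0.93 to 1.19). Mx2 shares 7.96% of its words with other genes, mainly Mx1, and Bst2 and Cmpk2 share none. No gene of the set was over 2-fold lower in replicate 1, against 4.36% of all genes. The 5 genes come from 4 families or groups, and 3 of them have promoter windows with the response element core, while Cmpk2 has none and Mx2 has no window. The same 5 genes were over 2-fold higher with library totals (4.81% of all genes), DESeq2 size factors (3.97%) and the second quantification (4.26%). Library totals and DESeq2 size factors raise every ratio by nearly the same amount, so neither could remove a gene. On TPM ratios Mx1, Gbp2 and Gbp3 joined them, where 9.69% of all genes pass.

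**Figure D3:**
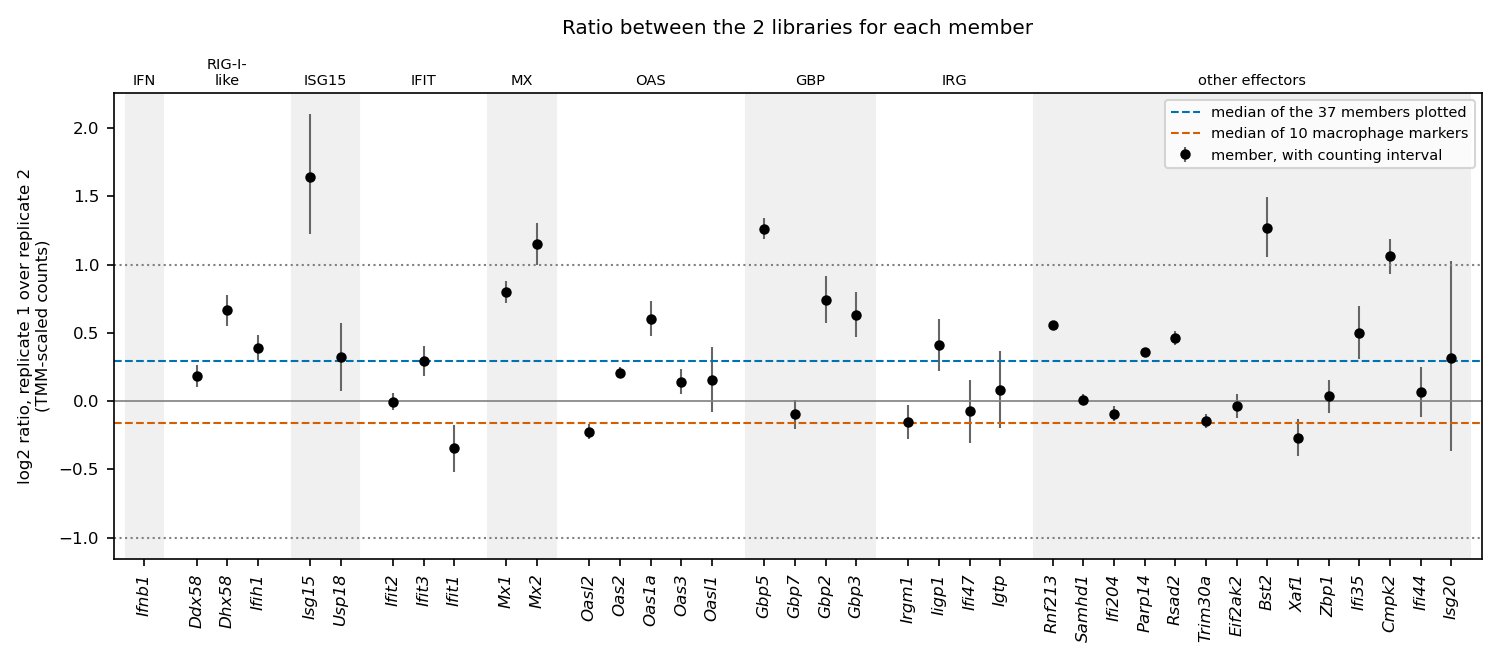
Log2 ratio of TMM-scaled counts, replicate 1 over replicate 2, for the 37 genes tested, by family, with bars for the exact binomial 95% counting interval and dashed lines for the medians of the set and of the 10 macrophage markers. Isg15, Bst2, Gbp5, Mx2 and Cmpk2 lie above the dotted line at 1, and Ifit1 lies lowest at -0.35.

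By family, the 3 RIG-I-like genes and the 2 MX genes were all higher in replicate 1, with log2 ratios of 0.18 for Ddx58, 0.39 for Ifih1, 0.66 for Dhx58, 0.80 for Mx1 and 1.15 for Mx2. These kept their sign under every scaling tried, although library totals and DESeq2 size factors raise every ratio and could not have turned them negative. The IFIT genes did not move as a block: Ifit3 had 0.29, Ifit2 had -0.00 and Ifit1 had -0.35. In the OAS family Oas1a had 0.60 and Oas2 had 0.21, whereas Oasl2 had -0.23. In the GBP cluster Gbp5, Gbp2 (0.74) and Gbp3 (0.63) were higher in replicate 1, and Gbp7 lay within counting error at -0.10. The counting intervals of Ifit1 and Ifit3, of Oasl2 and Oas1a, and of Gbp7 and Gbp5 did not overlap. Each pair holds the lowest and the highest ratio of its family, and the intervals cover counting error only. Beyond that error, 25.6% of all genes were higher and 24.5% were lower in replicate 1, shares not matched for depth. Whether genes of 1 family differ more than other genes was not tested.

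The 6 genes lower in replicate 1 were Ifit1, Xaf1 (-0.27), Oasl2, Irgm1 (-0.16), Trim30a (-0.15) and Ifi204 (-0.09). Their sign depends on the scaling, since all 6 had a positive ratio on the TPM scale of the first quantification, and Ifit1 and Ifi204 also did in the second quantification. Over 9 settings, 25 of the 37 genes had a positive ratio in all, 0 had a negative ratio in all, and 12 took either sign. Settings that change only the count minimum or the number added to each count cannot change a gene's sign. Library totals and DESeq2 size factors raise every ratio, so they cannot turn a positive ratio negative.

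The signalling genes had a median log2 ratio of 0.25. Beyond counting error 13 of 24 were higher in replicate 1 and 2 were lower, against 25.6% and 24.5% of all genes, and the 4 receptor genes all lay within counting error. Irf1 (1.85, interval 1.81 to 1.89) and Socs3 (1.32, interval 1.22 to 1.42) were over 2-fold higher, against 3.67% of all genes. Stat2 had 0.29. Of 18 early TLR4 response genes, of which Zfp36, Cxcl2 and Tnf had the highest mean TPM over the 2 libraries and Ptgs2 the lowest, 14 were higher in replicate 1 and 4 were lower, 6 were over 2-fold higher, and the median was 0.53, where all genes gave 25.6%, 24.5% and 3.67%. Of the 10 macrophage markers 2 were higher and 6 were lower, with a median of -0.16. The interval reached a median of 0.10 to either side for the signalling genes and 0.29 over all genes. For the early genes and for the macrophage markers it was 0.04. The shares of all genes are therefore not matched to these lists for depth. The mitochondrial share of counts, 3.19% in replicate 1 and 10.5% in replicate 2, moved with the same pair of libraries, and the part of RNA input, mitochondrial share and response in these ratios was not tested.

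As a share of all counts the set took 0.885% in replicate 1 (exact 95% interval 0.881 to 0.889) and 0.652% in replicate 2 (0.648 to 0.655). Nuclear-encoded protein-coding genes together took 73.3% in replicate 1 and 65.5% in replicate 2. The shares of the set are not corrected for the larger mitochondrial share of replicate 2.

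Nuclear RNA includes transcripts that keep introns, and the annotation marks some transcripts as retained-intron forms. Of the 38 genes, 20 have such a transcript. Their median retained-intron share of TPM was 31.2% in replicate 1 and 36.2% in replicate 2, against 32.00% and 32.9% over 6517 genes. In the second quantification the medians were 30.3% and 33.0%, against 35.5% and 37.4% over all such genes. The set's median thus lay near that of all genes in both. As shares of counts, which give short transcripts less weight, the medians were 24.2% and 24.6%, against 19.3% and 20.0% over all such genes.

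Single genes stood far from that median. Gbp5 had 69.9% and 78.1% of its TPM on a retained-intron transcript of 2 exons, and the second quantification gave 50.7% and 56.2%. Oasl2 had 56.9% and 60.9%, Ifih1 had 51.7% and 54.5%, and Cmpk2 had 49.9% and 55.4%. All 4 lay above the median of all genes in both libraries. In the second quantification Oasl2 (63.0% and 66.7%) and Cmpk2 (68.6% and 66.2%) did so too, but Ifih1 had 29.2% and 31.7% and lay below it. Oas2 had 4.87% and 4.05% and Trim30a had 6.05% and 7.50%, well below it, and in the second quantification Oas2 had 3.60% and 3.52% and Trim30a had 20.9% and 14.3%. Oasl1, with only 322 and 277 counts, had 22.9% and 57.8%, and the second quantification likewise gave 27.4% and 54.3%. Mx1 had 18.8% and 3.56% of TPM but 1.66% and 0.32% of counts, since the transcripts concerned are short, and the second quantification gave 41.95% and 24.8% of TPM. The Mx1 share is therefore not settled between the programs.

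**Figure D4:**
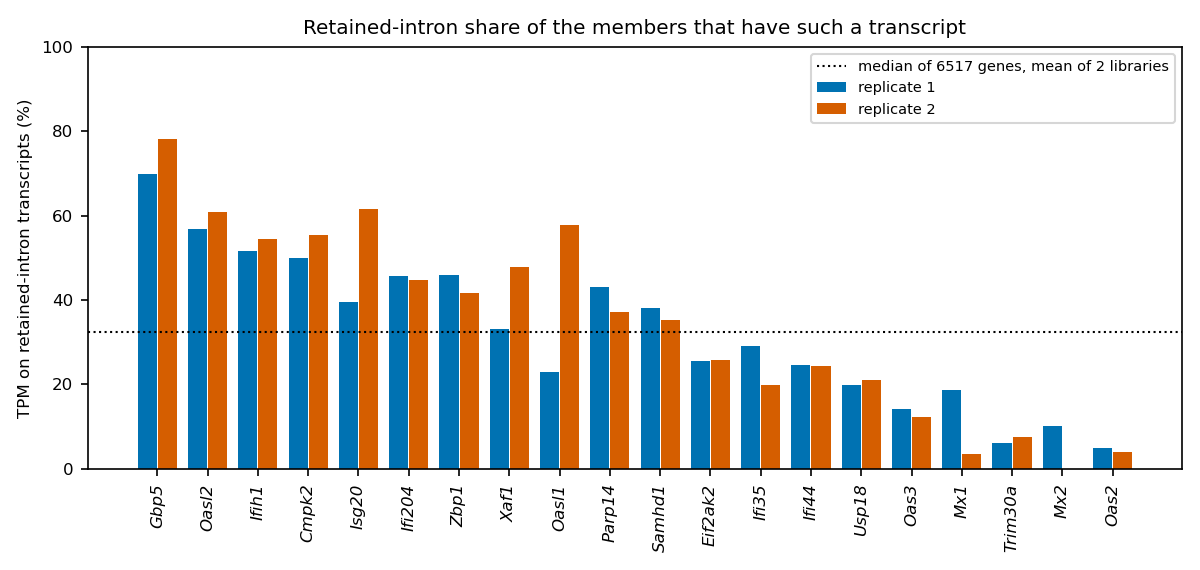
Retained-intron share of TPM (percent) for the 20 genes that have an annotated retained-intron transcript, with 1 bar per library and a dotted line for the median over 6517 genes. Gbp5 is highest at 69.9% and 78.1%, Oas2 and Trim30a are low in both libraries, and Oasl1 shows the widest gap between the libraries.

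By TPM summed over both libraries, the most abundant annotated transcript was protein-coding for 28 of the 38 genes, a retained-intron form for 6 (Cmpk2, Ifih1, Gbp5, Isg20, Xaf1 and Zbp1), a nonsense-mediated-decay form for 3 (Mx1, Oasl2 and Ifi35) and a polymorphic pseudogene for Mx2. By replicate 1 alone a coding form led for 31 genes and a retained-intron form for 3 (Gbp5, Ifih1 and Zbp1), while by replicate 2 alone these counts were 26 and 8. In the second quantification the counts over both libraries were 25, 5, 4 and 1, with 3 processed transcripts, and 25 of the 38 genes had the same leading transcript in both. Mx1 shows how far an isoform can depend on the program. An 11-exon decay form held 46.3% and 55.3% of Mx1 TPM in replicates 1 and 2 in the first quantification, but 2.16% and 0% in the second. The full 15-exon coding form held 0.104% and 0.196% in the first and 14.0% and 19.5% in the second.

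Gene levels in the second quantification were lower than in the first for all 37 genes compared in replicate 1. In replicate 2 some were lower and some were higher. The median log2 difference, second over first, was -1.12 in replicate 1 and -0.15 in replicate 2, against -0.95 and -0.04 over all genes. Rnf213 was the lowest in both libraries, at -1.81 and -0.98. The highest was Ddx58 in replicate 1, at -0.23, and Iigp1 in replicate 2, at 0.69. The median level of the set was 18.1 and 18.8 TPM in replicates 1 and 2 by the second quantification, so the higher TPM of replicate 1 in the first quantification did not hold there.

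**Figure D5:**
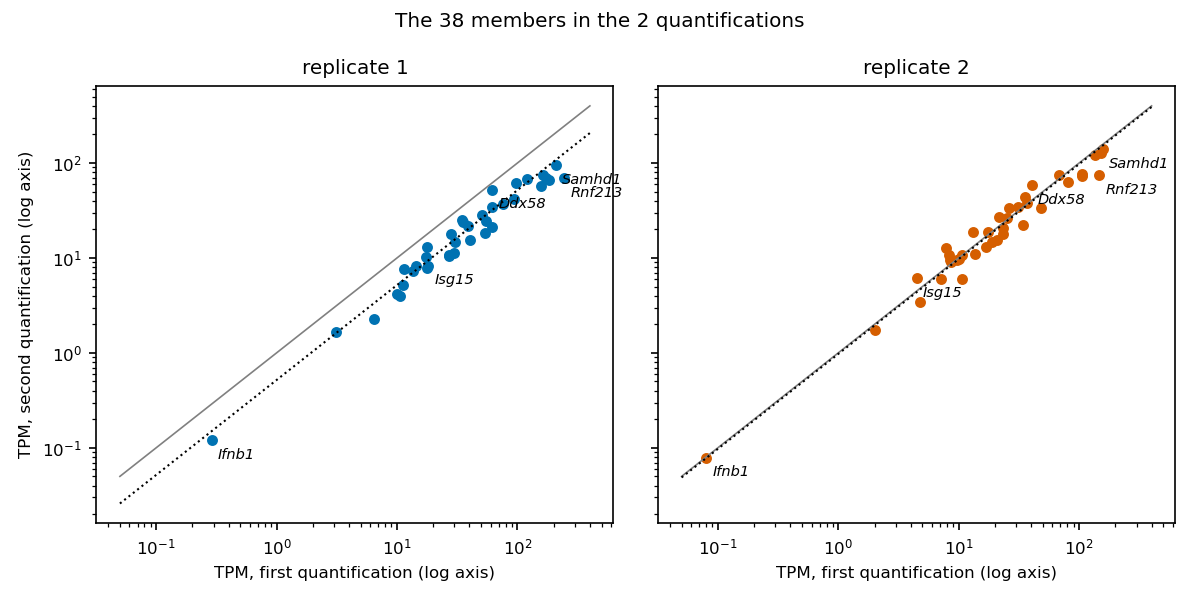
TPM of each gene in the first quantification (x axis) and the second (y axis), both on log axes, with 1 panel per library, a solid line of equality and a dotted line at the median difference of all genes. In replicate 1 the points lie below the line of equality, along the dotted line, while in replicate 2 they lie around both.

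Counting on genes that overlap another gene is uncertain, since how strand was handled was not given in the sources used here. Rnf213 shares 8.74% of its exon bases with A930037H05Rik on the opposite strand, which had 2672 and 2404 counts, against 60086 and 39100 counts for Rnf213. Dhx58 overlaps Dhx58os over 4.31% of its exon bases, Ifi35 overlaps the antisense gene Gm11626 over 16.8%, and Ifi47 overlaps Olfr56 on the same strand. These 3 partners had at most 48 counts in either library. On the same strand, Igtp shares 8.01% of its exon bases with Irgm2, which had 500 and 622 counts, against 222 and 201 counts for Igtp, and Parp14 shares 1.18% with Gm49730, which had 790 and 482 counts. In all, 16 of the 38 genes share over 5% of their 31-base words with another gene.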

How the data were processed

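RNA from 2 libraries of 1 group was analysed. Per the file headers, the deposited gene and transcript tables hold expected counts, posterior-mean and plain TPM, FPKM and the authors' posterior SD of each count, under column names that RSEM writes. A further deposited table holds estimated counts and TPM per transcript under names that kallisto writes, called the second quantification here. The assembly is mm10 per the labels, and GENCODE M21 supplied symbols, positions and transcript classes. Program versions and settings were not given in the sources used here.

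Expected counts, made whole by rounding, were scaled with TMM (edgeR 4.0.16, R 4.3.3, Python 3.11.15). Ratios, replicate 1 over replicate 2, had 0.5 added to each count and carry exact binomial 95% intervals; genes needed a mean scaled count of at least 10. With 1 group, no test between conditions was possible. Since reads carry no molecular identifiers, intervals and limits describe counting error only. The ratio calculation was first tested on simulated data. Spike-in, phiX and numbered entries stayed out. Mb21d1 was matched as Cgas through RefSeq synonyms.

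The 38 genes, the other lists and the measures were chosen with earlier results of these data known. The rule for named genes took all 38 genes, the signalling genes, and the 3 highest and the lowest by mean TPM of each other list; markers at 0 were named in addition. Some genes of these lists are not reported here. Alternatives were library totals, size factors of DESeq2 1.42.0, ratios of TPM, other minimums, FPKM, posterior-mean TPM, the other quantification and the omission of each library. Centring by GC content was added after seeing the data.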

Additional observations from a re-analysis of the deposited data

How the results depend on the processing

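No paired analysis was possible because the study has 1 group. The count of genes at 1 TPM or more in both libraries was 37 under every alternative and with either library left out (37 to 37), and the count of signalling genes was 23 throughout (23 to 23). The median level of 28.3 TPM became 110.93 TPM when TPM was rescaled over nuclear-encoded protein-coding genes and 18.4 TPM in the second quantification, and lay between 21.3 and 35.2 TPM with 1 library left out. The median log2 ratio of 0.29 became 0.63 on TPM ratios, where 8 genes instead of 5 were over 2-fold higher in replicate 1, and kept its sign under every alternative. The count over 2-fold lower in replicate 1 was 0 in each. The median retained-intron share of 33.7% became 24.4% as a share of counts, and lay between 31.2% and 36.2% with 1 library left out. The longer response element motif stood in 11 windows instead of 17. In all 46 recomputed values stayed within their spread or threshold, 6 moved and 0 reversed. The cause of these shifts was not tested. For the median level and the retained-intron share, the spread was taken from the same 2 libraries. Omitting 1 library could therefore not move these values beyond it, and their place in the tally is no check. Nor can omitting a library lower the counts of genes at 1 TPM or more. Library totals and DESeq2 size factors raise every ratio, so they could not reverse the median or add genes lower in replicate 1. The tally therefore includes entries that could not have changed. Leaving out a library gives no ratio. Depth limits Ifnb1, with 3 and 1 counts.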
